A study of Mus musculus with 86 samples.

Results

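Hearts of untreated wild-type FVB mice were set against hearts of untreated wild-type C57BL/6 mice, which gives the strain difference at rest, before any isoproterenol. The arrays were chosen by their titles: 10 untreated FVB arrays and 11 untreated C57BL/6 arrays, 21 of the 86 in the series. The series follows 4 mouse lines, each untreated or infused with isoproterenol, a beta-adrenergic agonist, and its design text contrasts FVB and C57BL/6 in the kind of cardiac dysfunction that sustained catecholamine exposure brings. As independent arrays, 12 FVB and 10 C57BL/6 hearts after 14 days of isoproterenol at 120 µg/g/day were used. The untreated arrays of B2KO mice, a name the labels do not explain, and of B6129SF2/J mice, an F2 cross of C57BL/6 and 129 stock, served for orientation, with 10 arrays each. Mice of the FVB and C57BL/6 lines were given avertin before cervical dislocation, and RNA came from the heart. Neither age, sex, C57BL/6 substrain nor time of day is given. The protocol speaks of 20 mice per line, whereas the FVB and C57BL/6 arrays number 22 and 21, so p-values here measure the spread between arrays.

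FVB and C57BL/6 are inbred strains, so a sequence variant that separates them is carried by every mouse of a strain. Some variants change how much of a transcript is made. Others lie in the stretch that a short array probe reads, and then the signal falls although the transcript may be there. An array that reads 1 gene with several probe sets offers a comparison, since probe sets in different places of a transcript share its abundance but not the bases under their probes. A probe set is a group of short oligonucleotides on the Affymetrix Mouse430_2 array. The ending of its name tells how specific it is: _a_at reads several transcripts of 1 gene, while _s_at and _x_at can also read other genes. Levels are given as log2 of the deposited intensity, which the authors had divided by each array's median, so 0 is the median of an array. A difference is the mean of FVB minus the mean of C57BL/6 on this log2 scale, with its standard error (SE).

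Tested were 17764 of 45101 probe sets, those above a level of 1 on at least 10 of the 21 arrays, of which 16011 had 1 gene symbol and covered 9692 genes. For 4030 genes 2 or more probe sets were tested, with up to 10 for a gene. A probe set that is bright in 1 strain alone could enter through that strain: 18 were above the level in all 10 FVB arrays and in no C57BL/6 array, and 59 in at least 10 C57BL/6 arrays and in no FVB array. Such probe sets had to differ. Among those named here they were the ones of Serpina1b, Gdpd3, Cap1, Fmn1, Tmem87a and Ifi202b and 1 each of Mapk14 and Pnpt1 through FVB, and those of Cxcl9, Nxpe4, Trim34a and Cacna1h, 2 of Ang and 1 each of Mndal, Uqcr10 and Prune2 through C57BL/6.

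Before any strain difference is read, 2 features of the arrays have to be stated. Among the 11 untreated C57BL/6 arrays, replicates 1, 2, 3, 4 and 6 stood apart from the other 6. Their values did not overlap with those of the 6 at 1772 probe sets, 9.98% of those tested. At these probe sets the untreated FVB median was nearer to the 6 in 85.0% of cases, the treated C57BL/6 median in 82.4% and the B6129SF2/J median in 93.2%. Summed marker levels were lower in the 5 than in the 6 for most cell types. The summed intensity of the 10 heart muscle markers had a median of 14800 in FVB hearts, against 10300 in the 5 C57BL/6 arrays and 15200 in the 6. Between the 5 and the 6 the medians were 1230 and 1950 for fibroblast markers, 268 and 392 for endothelium, 858 and 1190 for smooth muscle and pericytes, 2060 and 2720 for the atrium and 857 and 1010 for macrophages. They were higher in the 5 for the lymphocyte marker (11.3 and 7.05) and the neural markers (17.6 and 15.7). The part of this split in the results was not tested, so the counts of calls and of list members are also given without the 5. They were set aside after their values had been seen. The second feature concerns the array labelled treated FVB replicate 2. At the 210 probe sets where the untreated strains did not overlap, 18.6% of its values were nearer to the untreated FVB median, whereas the other 11 treated FVB arrays ran from 89.0 to 97.1% and the treated C57BL/6 arrays from 16.2 to 23.3%. It went against its label, and counts of probe sets in treated mice are given with and without it, those of genes, lists and pairs with it. Signal was low on FVB replicates 1 and 2 and on C57BL/6 replicate 6, and the Gapdh 3′ minus 5′ difference, a sign of RNA degradation, was 2.06 on FVB replicate 10 and 7.43 on C57BL/6 replicate 11.

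The hearts of the 2 strains differed at many genes by amounts far beyond the spread of the arrays. Pttg1, which encodes securin, and Ndufs5, a subunit of respiratory complex I, were read at 42.5-fold and 28.8-fold lower intensity in FVB hearts, at levels above the array median in both strains. The phosphodiesterase gene Gdpd3 was higher in FVB hearts by 9.13 on the log2 scale, and Mndal, an interferon-inducible nuclear protein gene, was lower by -6.44. Gdpd3 lay below the array median in C57BL/6 hearts and Mndal in FVB hearts, where the height above background was not tested, so no fold is given for them. Over all probe sets, 2171 passed limma's test at an adjusted p under 0.05, which is 12.2% of those tested: 899 higher (5.06%) and 1272 lower (7.16%) in FVB hearts. At 210 probe sets (1.18%) the 2 strains did not overlap, 59 higher (0.332%) and 151 lower (0.85%) in FVB hearts. The filter bears on these counts. The 18 sets that entered through FVB alone could not overlap, and the 59 that entered through C57BL/6 alone hardly could. Such a set had to exceed the level on all 10 FVB arrays, or on 10 of the 11 C57BL/6 arrays. With the most abundant probe set standing for its gene, 950 of 9692 genes passed (9.8%), 348 higher (3.59%) and 602 lower (6.21%).

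Fewer calls were made when the 5 C57BL/6 arrays were left out. A fit on fewer arrays also has less power, and no other 5 C57BL/6 arrays were left out for comparison. Without them 1028 probe sets passed (5.79%), 202 higher (1.14%) and 826 lower (4.65%) in FVB hearts. So did 549 genes (5.66%), 96 higher (0.991%) and 453 lower (4.67%). Of the 2171 probe sets, 878 passed in the same direction without the 5 and none in the opposite one. They were 199 of the 899 higher and 679 of the 1272 lower calls. The excess of lower calls moved with the scaling. Without the 5, the median difference over all probe sets was -0.22, and once each array was centred on its tested probe sets the calls were 472 higher and 761 lower. The share of higher calls was then 38.3%, against 19.6% with the deposited scaling. Other choices turned the split. With no filter 1705 probe sets were higher and 1682 lower in FVB hearts, with array weights 2990 and 2008, and without FVB replicates 1 to 4 they were 688 and 574. Without the low-signal and high-Gapdh arrays the calls were 1433 and 1040, without FVB replicate 1 they were 1042 and 1027, and with only the 5 C57BL/6 arrays 2964 and 1098. Whether more probe sets were higher or lower in FVB hearts thus depended on the arrays and settings used.

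The treated mice gave a second reading of the strain difference on other arrays. There 1592 probe sets passed (8.96%), 395 higher (2.22%) and 1197 lower (6.74%) in FVB hearts. Without the array labelled replicate 2 they were 1693 (9.53%), 456 higher (2.57%) and 1237 lower (6.96%). Of the genes, 833 passed in treated mice (8.59%), 153 higher (1.58%) and 680 lower (7.02%). Of the 2171 probe sets of the untreated comparison, 646 (29.8%) passed in the same direction in treated mice and 16 in the opposite one, or 720 (33.2%) and 12 without the array labelled replicate 2. Of the 1028 that passed without the 5, 607 (59.0%) passed in the same direction and 0 in the opposite one in limma's fit, or 650 (63.2%) and again 0 without that array. The 1293 that passed with all arrays but not without the 5 did so at 115 (8.89%), with 16 opposite. Without the array labelled replicate 2 they did so at 147 (11.4%), with 12 opposite. Sorting calls by a fit on fewer arrays also sorts them by strength, so these shares cannot tell the part of the 5. The untreated comparison without the 5 reuses arrays of the full one, so only the treated mice are a separate reading. In all 3 comparisons, that is with all untreated arrays, without the 5 and in treated mice, 531 probe sets passed in 1 direction (2.99%), 105 higher (0.591%) and 426 lower (2.4%) in FVB hearts. Without the array labelled replicate 2 these were 573, 114 higher and 459 lower, of which 525 were among the 531. The genes that did so were 268 (2.77%), 55 higher (0.567%) and 213 lower (2.2%). Centring the treated arrays gave 955 higher and 1011 lower calls there. With every array centred, those that passed in all 3 were 618, of which 209 were higher and 409 lower. Among those that differed by at least 2 in each of the 3 comparisons after centring, 31 were higher and 63 lower.

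**Figure D1:**
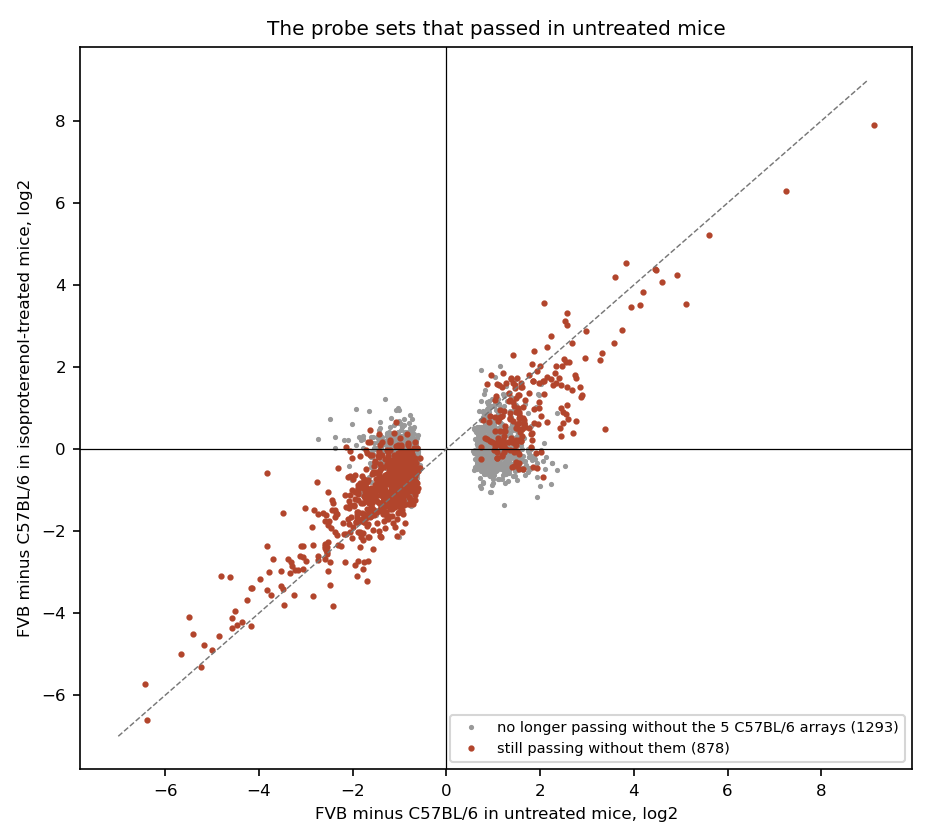
The FVB minus C57BL/6 difference in untreated mice (horizontal axis, log2) against that in isoproterenol-treated mice (vertical axis, log2) for the 2171 probe sets that passed in untreated mice, with a dashed line of equality. The 878 that still passed without the 5 C57BL/6 arrays are in red and the others in grey; large differences lie near the line, while many grey points sit near 0 in treated mice.

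At some genes every tested probe set showed the strain difference. All tested probe sets passed as higher in FVB hearts for 38 genes and as lower for 65, of the 4030 genes with 2 or more. Without the 5 C57BL/6 arrays these were 11 and 47. The genes that met the condition in all 3 comparisons were 5 higher and 22 lower. Those named here are the 10 on each side whose smallest difference was largest.

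Serpina1b, which encodes an alpha-1-antitrypsin, a serine protease inhibitor, led the genes that were higher. Its probe set 1451513_x_at ran from 1.81 to 3.44 (median 2.40) in FVB hearts, against -2.60 to -1.01 (median -1.77) in C57BL/6 hearts. The second, 1418282_x_at, ran from 1.78 to 3.44 (median 2.197) in FVB hearts, against -3.00 to -1.36 (median -2.23) in C57BL/6 hearts. All FVB arrays thus lay above the array median and all C57BL/6 arrays below it. The differences were 4.47 ± 0.24 and 4.59 ± 0.25 (SE; adjusted p = 1.23e-14 and 1.24e-14, limma). Both are _x_at sets and may also read the near-identical neighbours of this gene family.

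Psmc3ip, a cofactor of recombination between homologous chromosomes, ran from 2.92 to 4.67 (median 3.99) in FVB hearts, against 0.50 to 2.10 (median 1.24) in C57BL/6 hearts. The groups did not overlap at either probe set, and the differences were 2.61 ± 0.24 and 2.99 ± 0.28 (SE; adjusted p = 1.89e-09 and 3.21e-09). Wdfy1, an endosomal adaptor protein gene, was higher at 3 probe sets, by 2.33 ± 0.24, 2.53 ± 0.28 and 4.12 ± 0.32 (SE). At 1424749_at it ran from 2.12 to 3.63 (median 2.89) in FVB hearts, against -2.45 to 1.60 (median -1.24) in C57BL/6 hearts. These genes passed at every probe set in treated mice too, by 2.13 and 2.88 for Psmc3ip and by 2.03, 3.13 and 3.52 for Wdfy1.

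Sorl1, a sorting receptor of the LDL receptor family, was higher by 2.07 ± 0.23 and 1.59 ± 0.26 (SE), and by 1.35 and 1.61 in treated mice. It ran from 3.63 to 5.54 (median 4.46) in FVB hearts, against 1.76 to 2.90 (median 2.46) in C57BL/6 hearts at its brighter probe set, with no overlap. Frzb, a secreted antagonist of Wnt signalling, was higher by 1.64 ± 0.28 and 1.92 ± 0.38 (SE), but its dimmer probe set did not pass without the 5 arrays (adjusted p = 0.0504) or in treated mice (adjusted p = 0.0817; 0.00104 without the array labelled replicate 2). For Fam107a, an actin-associated protein gene, the dimmer set missed the threshold without the 5 (adjusted p = 0.0649), while the brighter one differed by 1.85 ± 0.36 (SE) and by 1.60 without them.

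The other genes of this group were not alike in treated mice. Mau2, which encodes a cohesin loader subunit, ran from 2.69 to 4.10 (median 3.29) in untreated FVB hearts, against 0.68 to 2.15 (median 1.16) in untreated C57BL/6 hearts. In treated mice its medians were 3.07 in FVB hearts and 2.17 in C57BL/6 hearts. The strain difference of 2.01 ± 0.21 (SE) in untreated mice was 0.80 in treated mice at this probe set, and 2.70 ± 0.30 (SE) against 0.39 at the other. Otub1, a deubiquitinase gene, differed by 3.38 ± 0.39 (SE) in untreated mice and by 0.48 in treated mice at its brighter probe set. Cebpb, a transcription factor of the acute phase response, was higher by 1.79 ± 0.34 and 2.36 ± 0.46 (SE), and passed neither without the 5 arrays (adjusted p = 0.0606 and 0.0799) nor in treated mice. Hspa1b is described with the heat shock genes.

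Pttg1 and Mndal headed the genes that were lower in FVB hearts. Pttg1 at 1438390_s_at ran from 1.77 to 4.08 (median 2.90) in FVB hearts, against 7.57 to 9.04 (median 8.33) in C57BL/6 hearts. The difference was -5.41 ± 0.25 (SE; adjusted p = 1.67e-16), and -4.61 ± 0.22 at 1424105_a_at. Mndal at 1426906_at ran from -1.97 to -0.32 (median -1.32) in FVB hearts, against 4.36 to 6.00 (median 5.26) in C57BL/6 hearts. Neither gene came near an overlap between the strains, and Mndal differed by -6.44 ± 0.22 and -5.66 ± 0.34 (SE; adjusted p = 2.28e-19 and 7.48e-14). Mndal belongs to a family of similar interferon-inducible genes, and 1 of its probe sets is an _x_at set.

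Cyfip2, a component of the complex that drives branched actin growth, ran from 1.54 to 3.08 (median 2.22) in FVB hearts, against 5.40 to 7.33 (median 6.25) in C57BL/6 hearts. Its differences of -3.97 ± 0.25 and -3.83 ± 0.28 (SE; adjusted p = 2.15e-13 and 6.95e-12) were close to each other. Capzb, the beta subunit of the protein that caps actin filaments at the sarcomere's Z disc, was lower at 3 probe sets, by -3.07 ± 0.23, -1.84 ± 0.23 and -1.82 ± 0.38 (SE). At the first of them it ran from 3.31 to 5.17 (median 4.02) in FVB hearts, against 6.28 to 7.69 (median 7.25) in C57BL/6 hearts. Mccc1, a subunit of the mitochondrial enzyme that degrades leucine, was lower by -2.37 ± 0.23 and -3.22 ± 0.24 (SE), and its groups did not overlap at either probe set.

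**Figure D2:**
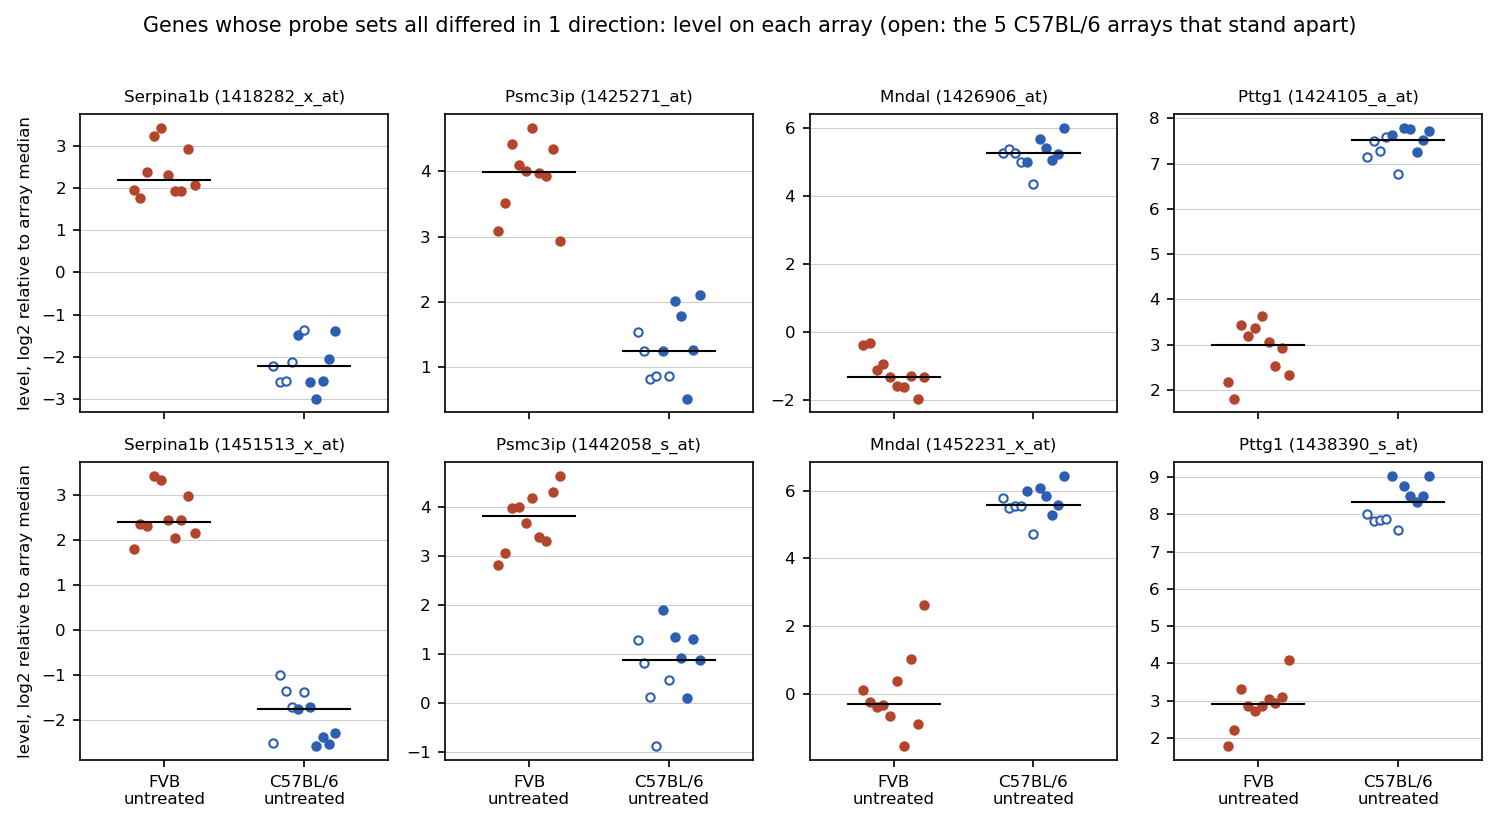
Level on each untreated array (vertical axis, log2 relative to the array median) at both probe sets of Serpina1b, Psmc3ip, Mndal and Pttg1, with FVB in red, C57BL/6 in blue, open circles for the 5 C57BL/6 arrays that stood apart and bars for group medians. In all 8 panels the strains do not overlap, and open and filled circles of C57BL/6 lie on the same side of FVB.

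The remaining lower genes with agreeing probe sets had smaller differences. Yae1d1 differed by -2.59 and -3.33, and Lgr6, a receptor for R-spondins, by -2.60 and -2.36. Ndrg4, a gene of heart and brain that is needed for heart growth in zebrafish, ran from 4.01 to 7.18 (median 5.79) in FVB hearts, against 6.79 to 8.45 (median 7.63) in C57BL/6 hearts, with a slight overlap and a difference of -2.06 ± 0.30 (SE). Nedd1, a centrosome protein gene, differed by -2.34 and -1.92, and Colec11, a collectin that recognises sugars on microbes, by -2.18 and -1.84. All 10 lower genes passed at every tested probe set without the 5 arrays and in treated mice. In treated mice their differences lay between -5.73 for Mndal and -1.35 for Ndrg4.

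Genes read by a single tested probe set included the largest difference of the comparison, though for them no second reading stood behind it. Gdpd3, an enzyme that makes lysophosphatidic acid, ran from 6.49 to 7.36 (median 7.11) in FVB hearts, against -3.10 to -1.01 (median -2.11) in C57BL/6 hearts. The difference was 9.13 ± 0.24 (SE; adjusted p = 2.63e-22). Cap1, a regulator of actin turnover, ran from 2.60 to 6.04 (median 5.00) in FVB hearts, against -1.84 to 0.46 (median -0.74) in C57BL/6 hearts, and differed by 5.61 ± 0.34 (SE). A second Cap1 probe set missed the filter, with medians of 4.12 in FVB hearts and -1.40 in C57BL/6 hearts. Tmem87a differed by 5.12 ± 0.32, Fmn1, an actin-nucleating formin, by 4.92 ± 0.27, and Hddc3 by 3.75 ± 0.24 (SE). For Hddc3 a second, untested probe set had medians of -0.56 in FVB hearts and 0.35 in C57BL/6 hearts. An untested Fmn1 set had medians of 0.405 in FVB hearts and -1.69 in C57BL/6 hearts.

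On the lower side stood Ndufs5, which ran from 3.39 to 5.12 (median 4.17) in FVB hearts, against 8.47 to 9.80 (median 9.11) in C57BL/6 hearts. Its difference of -4.85 ± 0.21 (SE; adjusted p = 1.11e-16) rests on the 1 probe set that carries this symbol alone. Nxpe4 differed by -4.37 ± 0.25, Trim34a, an interferon-inducible member of the tripartite motif family, by -4.14 ± 0.23, and Rpgrip1, a protein gene of the photoreceptor cilium, by -3.54 ± 0.39 (SE). A second, untested Trim34a probe set had medians in the opposite order, -0.03 in FVB hearts and -1.36 in C57BL/6 hearts. For Rpgrip1, 3 untested sets had medians from -1.02 to -0.78 in FVB hearts and from -1.20 to -0.75 in C57BL/6 hearts. Cxcl9, a chemokine induced by interferon gamma, ran from -1.64 to 0.12 (median -0.95) in FVB hearts, against 1.72 to 3.63 (median 2.62) in C57BL/6 hearts. Its difference was -3.48 ± 0.26 (SE), and -1.55 in treated mice. An untested Cxcl9 set had medians in the same order, -0.995 in FVB hearts and 0.26 in C57BL/6 hearts. All 12 of these single-probe-set genes, H2-Eb1 and Ifi202b below included, passed in the same direction without the 5 arrays and in treated mice.

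At other genes the probe sets told different stories. All pairs of tested probe sets of the same gene were compared, so a gene with many probe sets enters with many pairs. Among these 9842 pairs, 1541 (15.7%) differed in their strain difference. Without the 5 C57BL/6 arrays 325 did (3.3%), in treated mice 410 (4.17%), and in all 3 comparisons 159 (1.62%), from 98 genes. In 84 of the 159 pairs 1 probe set was lower in FVB hearts while the other did not pass, and in 37 pairs 1 was higher while the other did not pass. Both were lower in 12, both higher in 2, opposite in 17, and neither passed in 7. The probe set with the larger difference was lower in FVB hearts in 112 pairs and higher in 47. No probe sequences were analysed here. A variant under the probes, a change of 1 transcript form and, at _s_at and _x_at sets, signal of other genes cannot be told apart.

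Rps9, a protein of the small ribosomal subunit, shows the pattern in its plainest form. At 1434624_x_at it ran from 2.15 to 3.42 (median 2.75) in FVB hearts, against 7.33 to 9.24 (median 7.97) in C57BL/6 hearts. At 1433689_s_at it ran from 6.60 to 8.29 (median 8.07) in FVB hearts, against 6.70 to 8.69 (median 7.83) in C57BL/6 hearts. The first probe set separated the strains without overlap and the second did not separate them. By their endings both may also read other genes. The differences were -5.17 ± 0.22 and 0.14 ± 0.25 (SE; adjusted p = 8.13e-17 and 0.787).

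Uqcr10, a subunit of respiratory complex III, had 2 low probe sets, at -4.57 ± 0.21 and -3.74 ± 0.23, and a brighter one at -0.09 ± 0.26 (SE). The brightest, 1424364_a_at, ran from 6.95 to 8.88 (median 8.05) in FVB hearts, against 7.25 to 9.18 (median 8.14) in C57BL/6 hearts. At 1434340_at it ran from -0.84 to 0.45 (median -0.15) in FVB hearts, against 3.75 to 5.37 (median 4.40) in C57BL/6 hearts. Whether the gene passed as lower thus depended on the probe set. Rgs5, a brake on G protein signalling that marks pericytes, differed by -5.01 ± 0.41 (SE) at 1420940_x_at, while its 3 other probe sets, all brighter, lay at -0.01, -0.33 and 0.74 and did not pass. Prune2 differed by -6.38 ± 0.46 (SE) at 1432198_at and by -0.96 and 0.30 at the other sets, neither of which passed, though the first of these was lower in treated mice, at -1.59 (adjusted p = 0.00362).

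Pnpt1, a mitochondrial RNA-degrading enzyme, was the clearest case in the opposite direction. At 1452677_at it ran from 1.43 to 3.52 (median 2.28) in FVB hearts, against -2.43 to -0.75 (median -1.82) in C57BL/6 hearts. Its brighter probe set did not pass, and the differences were 4.18 ± 0.26 and -0.27 ± 0.24 (SE). Il6st, the shared signalling receptor gp130 of the interleukin-6 family, differed by 3.28 ± 0.24 (SE) at 1437303_at, whereas its 3 other sets lay between -0.62 and -0.16 and did not pass. Mapk14, the stress kinase p38 alpha, differed by 2.95 ± 0.31 (SE) at 1442364_at and by -0.09 ± 0.21 (SE) at its brightest probe set. One further Mapk14 set was lower by -1.09 (adjusted p = 0.0357), and did not pass without the 5 arrays (adjusted p = 0.172).

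Ang, the ribonuclease angiogenin, was lower at all 3 of its probe sets, but by very different amounts. The sets 1438936_s_at and 1438937_x_at differed by -5.23 ± 0.23 and -4.17 ± 0.24, and the brightest by -0.93 ± 0.22 (SE; adjusted p = 0.00514). Rbm39, a splicing factor, was read by 10 probe sets. Of these, 1446147_at was higher by 2.35, 1442744_at by 1.54 and 1446148_x_at by 1.48, and 1438398_at was lower by -1.83. The 6 others, the brightest among them at -0.12 ± 0.20 (SE), did not pass.

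**Figure D3:**
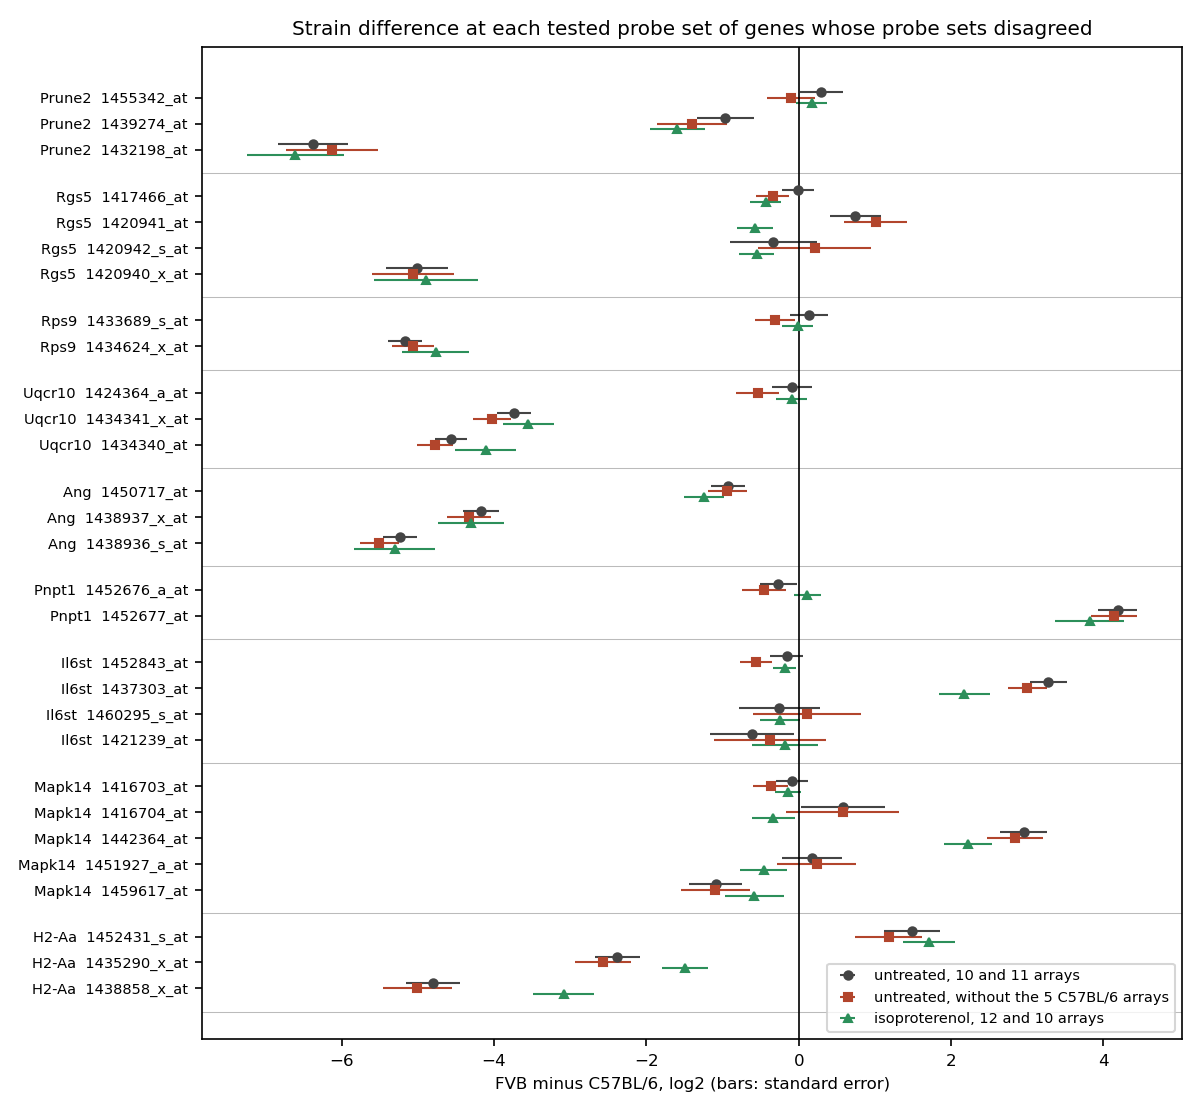
FVB minus C57BL/6 difference (horizontal axis, log2, bars of 1 SE) at each tested probe set of 9 genes, the set with the highest mean in FVB hearts first within a gene. Circles are untreated mice with 10 and 11 arrays, squares the same without the 5 C57BL/6 arrays, and triangles treated mice; for Rps9, Uqcr10 and Pnpt1 the brightest set lies near 0 while the others lie beyond 3 in size, in all 3 comparisons.

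The genes are next taken by lists of related function, with the probe set of highest mean for each gene. Each count of list members can be read against all 9692 genes, of which 3.59% were higher and 6.21% lower in FVB hearts, 9.8% together. Without the 5 arrays these shares were 0.991% and 4.67%, and in treated mice 1.58% and 7.02%. The lists were not tested as sets.

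The major histocompatibility complex, whose class II genes present peptides to T cells, differed between the strains at a few genes. Of 17 tested genes of antigen presentation, 1 was higher and 3 lower in FVB hearts, which is 23.5% in all, with a median difference of -0.12 against -0.03 over all genes. In limma's test 0 were higher and 2 lower without the 5 arrays, and 1 and 4 in treated mice. H2-Eb1, a class II beta chain, ran from -0.89 to 1.27 (median 0.57) in FVB hearts, against 3.78 to 5.16 (median 4.70) in C57BL/6 hearts. Its difference was -4.25 ± 0.25 (SE). H2-Aa, a class II alpha chain, was lower at 2 probe sets, by -4.80 ± 0.35 and -2.38 ± 0.29, and higher at the remaining one, by 1.49 ± 0.36 (SE; adjusted p = 0.00608). That set, 1452431_s_at, ran from 2.79 to 7.17 (median 5.25) in FVB hearts, against 2.36 to 4.09 (median 3.78) in C57BL/6 hearts. It passed in treated mice at 1.71 but not without the 5 arrays (adjusted p = 0.13). All H2-Aa sets are _x_at or _s_at sets, which may also read other genes. The class I gene H2-D1 was higher at all 4 probe sets, by 0.78 at the brightest and by up to 1.51. Without the 5 arrays 2 of the 4 passed, and the brightest did not (adjusted p = 0.243). Its probe sets may also read other class I genes. The peptide transporter Tap1 was lower by -1.18, but not without the 5 (adjusted p = 0.076). The partner chains H2-Ab1 and Cd74 differed by -0.79 and -0.35 and did not pass.

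Interferon-response genes passed in both directions in untreated mice. Of 29 tested, 6 were lower (20.7%, against 6.21% of all genes) and 1 higher (3.45%, against 3.59%) in FVB hearts, with p adjusted over all 9692 genes and with a median difference of -0.47, against -0.03 over all genes. Without the 5 arrays 3 were lower and none higher, with a median of -0.55 against -0.26. In treated mice 1 was lower, Ifit3, and 1 higher, Gbp7 (0.84; adjusted p = 0.0441), with a median of -0.06. Trim30a, an inducible inhibitor of inflammatory signalling, ran from 0.25 to 2.23 (median 1.20) in FVB hearts, against 2.19 to 3.53 (median 2.72) in C57BL/6 hearts, and differed by -1.67 ± 0.23 (SE). Its second probe set, 1451860_a_at, differed by -0.04 and did not pass. In treated mice the first Trim30a set differed by -0.75 (adjusted p = 0.0893), or by -0.96 (probe-set adjusted p = 0.00191) without the array labelled replicate 2. Ifit3, an antiviral effector, differed by -1.31 ± 0.27 (SE) in untreated mice and -1.06 in treated mice, and Ifih1, a sensor of viral RNA, by -0.97 ± 0.22 (SE). Oasl2, Rtp4 and Eif2ak2 were lower by -1.12, -0.74 and -0.89, and Gbp6 was higher by 1.21. None of these 4 passed without the 5 arrays (adjusted p from 0.0782 to 0.257). A second Eif2ak2 probe set differed by 0.06.

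Genes known to vary between mouse strains gave mixed results. Of 14 tested, 2 were higher and 2 lower (28.6% in all, against 9.8% of all genes). Both without the 5 arrays and in treated mice 2 were higher and 1 lower. Ifi202b, an interferon-inducible gene, ran from 1.35 to 3.39 (median 2.51) in FVB hearts, against -2.24 to -0.22 (median -1.63) in C57BL/6 hearts, a difference of 3.94 ± 0.26 (SE). Wdfy1 and Pttg1 are the passing genes already described, and Mmrn1 was lower by -0.93 but not without the 5 arrays (adjusted p = 0.16). Nnt, the mitochondrial transhydrogenase that is truncated in the C57BL/6J substrain, ran from 7.78 to 9.40 (median 8.99) in FVB hearts, against 7.60 to 9.27 (median 8.34) in C57BL/6 hearts. The ranges lay almost on top of each other, and the difference of 0.59 ± 0.23 (SE) did not pass (adjusted p = 0.0973). Ahr, Ceacam1, Erdr1, Fcgr2b, Glo1, H2-Ea, Ide, Sirpa and Slc11a1 did not pass either at their most abundant probe sets, with differences between -0.56 and 1.13. Single dimmer sets differed by -1.26 for Ide and by 1.01 for Ceacam1, against 0.05 and -0.10 at the sets used. Their other dimmer sets lay between -0.04 and 0.44 for Ide and between 0.14 and 0.85 for Ceacam1. A dimmer set of Glo1, the glyoxalase that detoxifies methylglyoxal, was lower by -1.63, while its 3 others lay between -0.22 and 0.03.

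Genes of the heart's contraction and electrical activity differed at a few members, some of them by a large factor, while the main contractile genes did not pass. None of the 10 heart muscle markers passed. Myh6, the main myosin heavy chain of the adult mouse heart, ran from 11.29 to 11.81 (median 11.47) in FVB hearts, against 11.04 to 12.07 (median 11.30) in C57BL/6 hearts. Myh7, the slow myosin heavy chain that the mouse ventricle uses before birth and again in hypertrophy, ran from 5.76 to 10.32 (median 7.72) in FVB hearts, against 3.46 to 7.21 (median 4.43) in C57BL/6 hearts. Most FVB arrays lay above the C57BL/6 range. The difference of 2.75 ± 0.46 (SE; adjusted p = 0.000103) corresponds to 6.72-fold, and was 2.09 (adjusted p = 0.0276) without the 5 arrays and 1.80 (adjusted p = 3.21e-06) in treated mice. The highest FVB value came from replicate 10, the array with the raised Gapdh difference.

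Of 36 tested sarcomere genes 3 were higher and 0 lower in limma's test, Myh7, Des (1.07) and Tcap (0.66), and the last pair did not pass without the 5 arrays (adjusted p = 0.294 and 0.442). These are 8.33% of the list, against 9.8% of all genes. There was 1 higher and 1 lower without the 5 arrays, and 3 and 2 in treated mice. Of 24 genes of calcium cycling 6 were higher (25%, against 3.59% of all genes) and 1 lower (4.17%, against 6.21%), with a median difference of 0.20. Leaving out the 5 arrays left 2 higher and 2 lower, with a median of -0.19, and in treated mice 2 and 2 passed, with a median of -0.11. Casq1, the calsequestrin of fast skeletal muscle, ran from 4.21 to 6.67 (median 5.45) in FVB hearts, against 1.52 to 4.02 (median 2.88) in C57BL/6 hearts. Cacna1h, a T-type calcium channel, ran from -0.74 to 0.88 (median -0.24) in FVB hearts, against 2.29 to 3.69 (median 3.23) in C57BL/6 hearts. Neither overlapped between the strains. Casq1 differed by 2.58 ± 0.28 and Cacna1h by -3.26 ± 0.24 (SE; adjusted p = 7.38e-08 and 1.74e-11), and in treated mice by 3.31 and -3.55.

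The inositol trisphosphate receptor gene Itpr2 was higher by 1.23 ± 0.24 (SE), and by 0.93 in treated mice. Slc8a1, the sodium-calcium exchanger, Cacna1g, the second T-type channel, Mcu, the mitochondrial calcium uniporter, and Asph were higher by 1.81, 1.57, 0.69 and 0.66. None of these 4 passed without the 5 arrays (adjusted p from 0.0869 to 0.318) or in treated mice. A second Slc8a1 probe set differed by 0.45 in untreated mice. Of 20 genes of ion channels and gap junctions 4 were higher and 2 lower (20% and 10%, against 3.59% and 6.21% of all genes). In limma's test none was higher and 1 lower without the 5 arrays, and in treated mice 1 and 3. Kcnj3, a subunit of the atrial potassium channel opened by acetylcholine, ran from 3.83 to 5.53 (median 4.90) in FVB hearts, against 5.16 to 6.84 (median 6.47) in C57BL/6 hearts. It was lower by -1.51 ± 0.24 (SE; adjusted p = 6.07e-05), and its 2 other probe sets by -1.18 and -1.09, which did not pass without the 5 arrays (adjusted p = 0.154 and 0.0593). Atp1b1, Kcnh2, Scn4b, Kcnip2 and Kcne1 passed with all arrays and not without the 5 (adjusted p from 0.0753 to 0.453). Of 44 adrenergic signalling genes 1 was higher, the G protein subunit Gnb1 (1.15), which passed in treated mice but not without the 5 (adjusted p = 0.222). That is 2.27% of the list, below the 9.8% of all genes. A second Gnb1 probe set differed by 0.31 in untreated mice. Of the 44, 0 passed in limma's test without the 5 arrays, and in treated mice 1 was higher and 2 lower.

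Growth, matrix and metabolic genes added several differences that held in all 3 comparisons. Ccn2, a matricellular growth factor, ran from 7.02 to 8.88 (median 7.38) in FVB hearts, against 4.95 to 6.60 (median 6.19) in C57BL/6 hearts, with no overlap. It was higher by 1.55 ± 0.25 (SE; adjusted p = 6.07e-05). Igf1 was lower by -1.05 ± 0.22 (SE) at its brightest probe set, while its 3 other sets lay between -0.16 and 0.30 and did not pass. Of 31 genes of hypertrophy and stretch 3 were higher and 3 lower in all (19.4%, against 9.8% of all genes). The counts were 2 and 1 without the 5 arrays, and 4 and 3 in treated mice. Hand2 (1.14), Ednrb (-0.77) and Agtr1a (-0.78) were the ones that did not pass without the 5 arrays. A second Ednrb probe set differed by -0.095.

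Cilp, a matrix protein gene of cartilage and of fibrotic hearts, ran from -0.64 to 1.61 (median 0.72) in FVB hearts, against 1.78 to 4.63 (median 3.56) in C57BL/6 hearts. The difference was -2.59 ± 0.31 (SE; adjusted p = 4.43e-07), with -2.41 in treated mice, where both medians were higher, at 3.16 in FVB hearts and 5.39 in C57BL/6 hearts. Timp4, a protease inhibitor of the heart's matrix, was lower at both probe sets, by -1.26 ± 0.31 and -1.36 (SE for the first), and by -1.64 and -1.59 in treated mice. Of 52 genes of the extracellular matrix 4 were higher and 2 lower, which is 11.5% and near the 9.8% of all genes. Leaving out the 5 arrays left 0 higher and 2 lower in limma's test, and in treated mice the counts were 0 and 5. The 4 higher ones, Thbs4, Fbln2, Timp1 and Tgfb3, did not pass without the 5 arrays (adjusted p from 0.172 to 0.352).

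Energy metabolism differed at single genes. Of 48 genes of the respiratory chain and the citric acid cycle none passed in either direction by limma at the probe set that stands for each gene, and 1 was lower without the 5 arrays and 1 in treated mice. Neither Ndufs5 nor Uqcr10 was on this list. Fbp2, the muscle fructose bisphosphatase, was the sole passing gene of 28 for glycolysis and glucose (3.57%, against 9.8% of all genes), and 1 was lower without the 5 arrays and in treated mice as well. It ran from 2.04 to 4.12 (median 3.33) in FVB hearts, against 4.14 to 5.49 (median 4.76) in C57BL/6 hearts, without overlap, and was lower by -1.60 ± 0.25 (SE; adjusted p = 3.3e-05). Of 41 genes of fatty acid oxidation 4 were higher and 2 lower (14.6% in all). Leaving out the 5 arrays left 1 higher and 1 lower, and in treated mice 0 and 6 passed in limma's test. Hadh, a dehydrogenase of the cycle for shorter chains, was lower by -0.67 ± 0.20 (SE) in untreated and -1.25 in treated mice. Its 2 dimmer sets were lower by -1.33 and -3.82, the second of which did not pass in treated mice (-0.57). Ppara, Ppard, Ppargc1a and the uncoupling protein gene Ucp3 differed by 1.27, 0.79, 1.14 and -0.88 and did not pass without the 5 arrays (adjusted p from 0.084 to 0.249). Other probe sets differed by 1.94 and -0.33 for Ppara and by -0.37 for Ucp3. Those of Ppargc1a lay between -0.30 and 0.60. Bdh1, an enzyme of ketone body use, was higher by 1.36 ± 0.25 (SE), by 1.03 without the 5 and by 0.18 (adjusted p = 0.692) in treated mice. Of 49 antioxidant and detoxification genes 1 was higher and 2 lower (6.12%, below the 9.8% of all genes). By limma 0 were higher and 3 lower without the 5 arrays, and 0 and 4 in treated mice. The glutathione transferase Gstt1 was lower by -0.70 in untreated and -0.96 in treated mice, Gsto1 lower by -1.21 and -0.48 (the second not passing), and Mt1 higher by 1.10 but not without the 5 (adjusted p = 0.28). A second Gsto1 probe set differed by -0.45 in untreated mice.

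**Figure D4:**
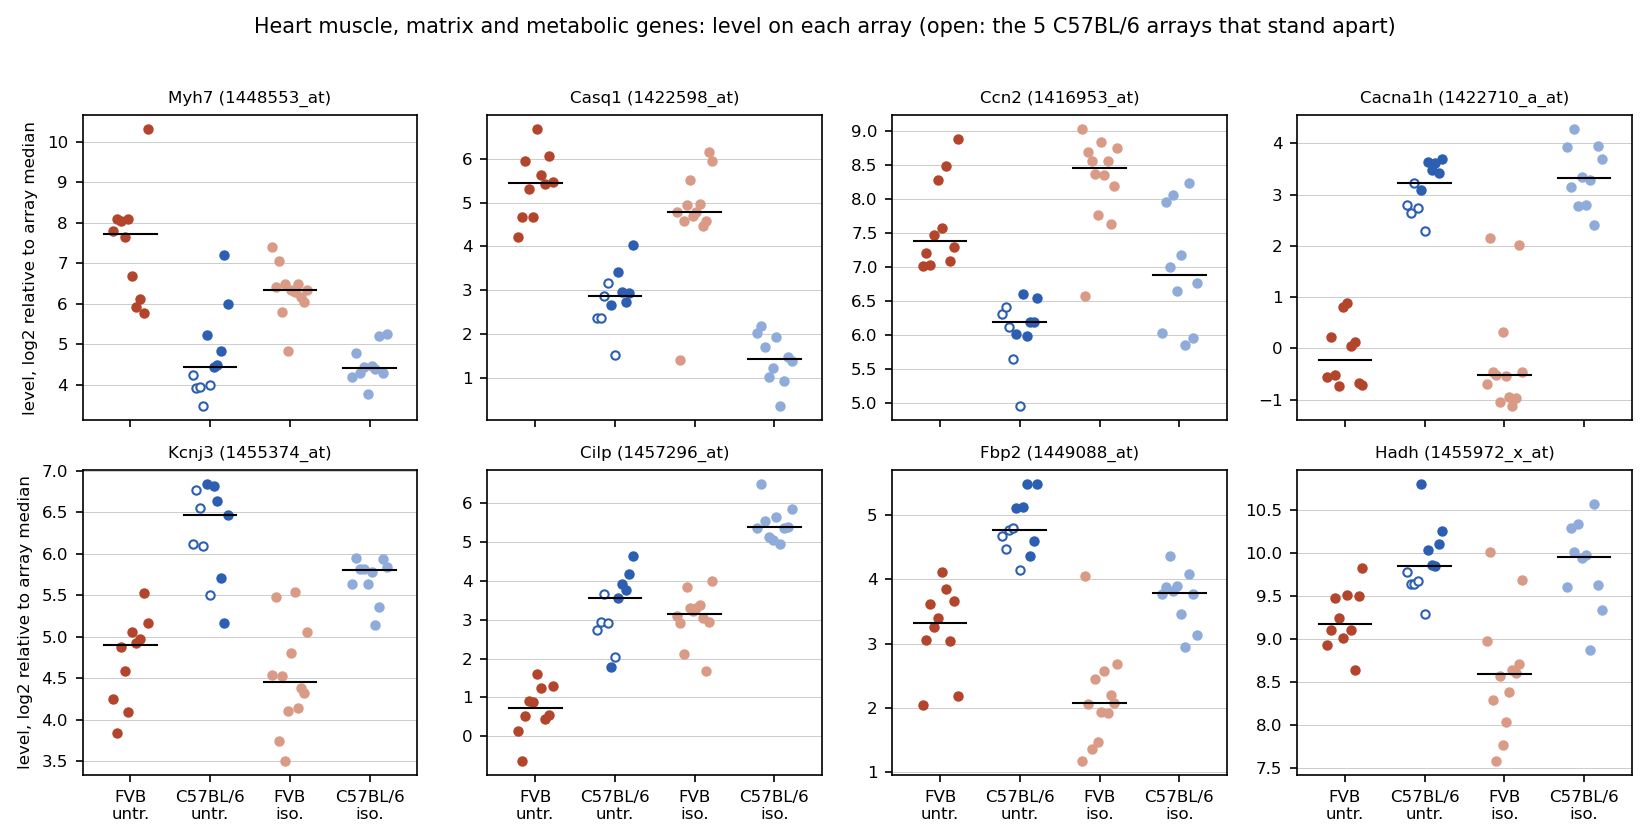
Level on each array (vertical axis, log2 relative to the array median) of Myh7, Casq1, Ccn2, Cacna1h, Kcnj3, Cilp, Fbp2 and Hadh in untreated FVB, untreated C57BL/6, treated FVB and treated C57BL/6 hearts, with bars for medians and open circles for the 5 C57BL/6 arrays that stood apart. The strain difference has the same direction in treated and untreated hearts in every panel, and for Casq1 1 treated FVB array lies among the treated C57BL/6 arrays.

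Immediate early genes, which cells switch on within minutes of a stimulus, were partly higher in untreated FVB hearts. Of 19 tested, 5 were higher (26.3%, against 3.59% of all genes) and 0 lower in limma's test, with a median difference of 0.54 against -0.03 over all genes. By limma 2 were higher and 0 lower without the 5 arrays, with a median of 0.47 against -0.26. In treated mice 0 were higher and 1 lower, with a median of -0.41. Junb, a subunit of the AP-1 transcription factor, ran from 1.46 to 3.58 (median 2.36) in FVB hearts, against -1.08 to 1.78 (median 0.32) in C57BL/6 hearts. Btg2, an early inhibitor of proliferation, ran from 3.94 to 5.21 (median 4.43) in FVB hearts, against 1.82 to 4.07 (median 2.98) in C57BL/6 hearts. The strains overlapped little at either gene. The differences were 2.07 ± 0.32 and 1.54 ± 0.26 (SE; adjusted p = 3.23e-05 and 9.74e-05), and both passed without the 5 arrays, at 1.56 and 1.07. The second Btg2 probe set differed by 0.52 and did not pass.

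Jund, Ier5 and Ier3 were higher by 1.22, 0.98 and 0.68, and did not pass without the 5 arrays (adjusted p from 0.196 to 0.313). In treated mice Junb differed by -0.69 and Btg2 by -0.48, neither passing, and Ier2 was lower in FVB hearts by -1.46 (adjusted p = 0.0393). Among the treated C57BL/6 hearts, replicates 4 and 8 had the highest Junb, at 6.30 and 6.01, and the next was 3.76. Over all arrays the strain difference in treated mice minus that in untreated mice was -2.76 for Junb (adjusted p = 0.00776) and -2.02 for Btg2 (adjusted p = 0.0452). Without the 5 arrays it was -2.25 and -1.56, and neither passed (adjusted p = 0.232 and 0.395).

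Of 25 heat shock and chaperone genes tested, 5 were higher (20%, against 3.59% of all genes) and 0 lower in limma's test, with a median difference of 0.32. By limma 1 was higher and 0 lower without the 5 arrays, with a median of 0.045, and in treated mice 0 were higher and 2 lower, with a median of 0.10. Hspa1b, an inducible chaperone of the HSP70 family, ran from 3.03 to 7.61 (median 5.01) in FVB hearts, against 1.93 to 3.96 (median 3.05) in C57BL/6 hearts. It was higher at all 3 probe sets, by 2.40 ± 0.42, 2.77 ± 0.46 and 2.46 ± 0.50 (SE), and passed without the 5 arrays at each. In treated mice it differed by 1.73, 1.73 and 2.01 with a wide spread and did not pass (adjusted p from 0.0867 to 0.148). Its signal cannot be separated from the near-identical Hspa1a, which was higher by 1.96. Dnaja1, Hsph1 and Hspb1 were higher by 0.93, 0.92 and 0.81 and, like Hspa1a, did not pass without the 5 (adjusted p from 0.0944 to 0.465). Other Dnaja1 probe sets differed by -0.08 and 0.75.

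Genes of the circadian clock moved in both directions. Of 14 tested, 3 were higher (21.4%, against 3.59% of all genes) and 2 lower (14.3%, against 6.21%) in FVB hearts. There were 1 higher and 2 lower without the 5 arrays, and 3 and 0 in treated mice by limma. The genes of the clock's negative arm did not move together: Cry1 was lower, while Per3 and Per2 were higher. Per3 ran from 1.38 to 4.86 (median 2.55) in FVB hearts, against -2.08 to 2.59 (median 1.06) in C57BL/6 hearts. Per2 ran from 1.29 to 2.72 (median 1.77) in FVB hearts, against -1.69 to 1.72 (median 0.60) in C57BL/6 hearts. Both overlapped between the strains, Per2 less than Per3. They were higher by 2.01 ± 0.43 and 1.38 ± 0.32 (SE), missed the threshold without the 5 arrays (adjusted p = 0.103 and 0.0661), and passed in treated mice at 1.59 and 1.26. A second Per3 probe set differed by 0.34 and did not pass. Arntl, the activator that pairs with Clock, ran from 0.03 to 2.87 (median 1.46) in FVB hearts, against 1.54 to 3.37 (median 2.64) in C57BL/6 hearts. Arntl was lower by -1.13 ± 0.31 and Cry1 by -0.90 ± 0.24 (SE), both also without the 5 (adjusted p = 0.0332 and 0.0426) but not in treated mice. The repressor Bhlhe40 was higher by 1.48 ± 0.29 (SE), and by 0.86 without the 5. The hour at which hearts were taken is not given, so its part could not be tested.

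**Figure D5:**
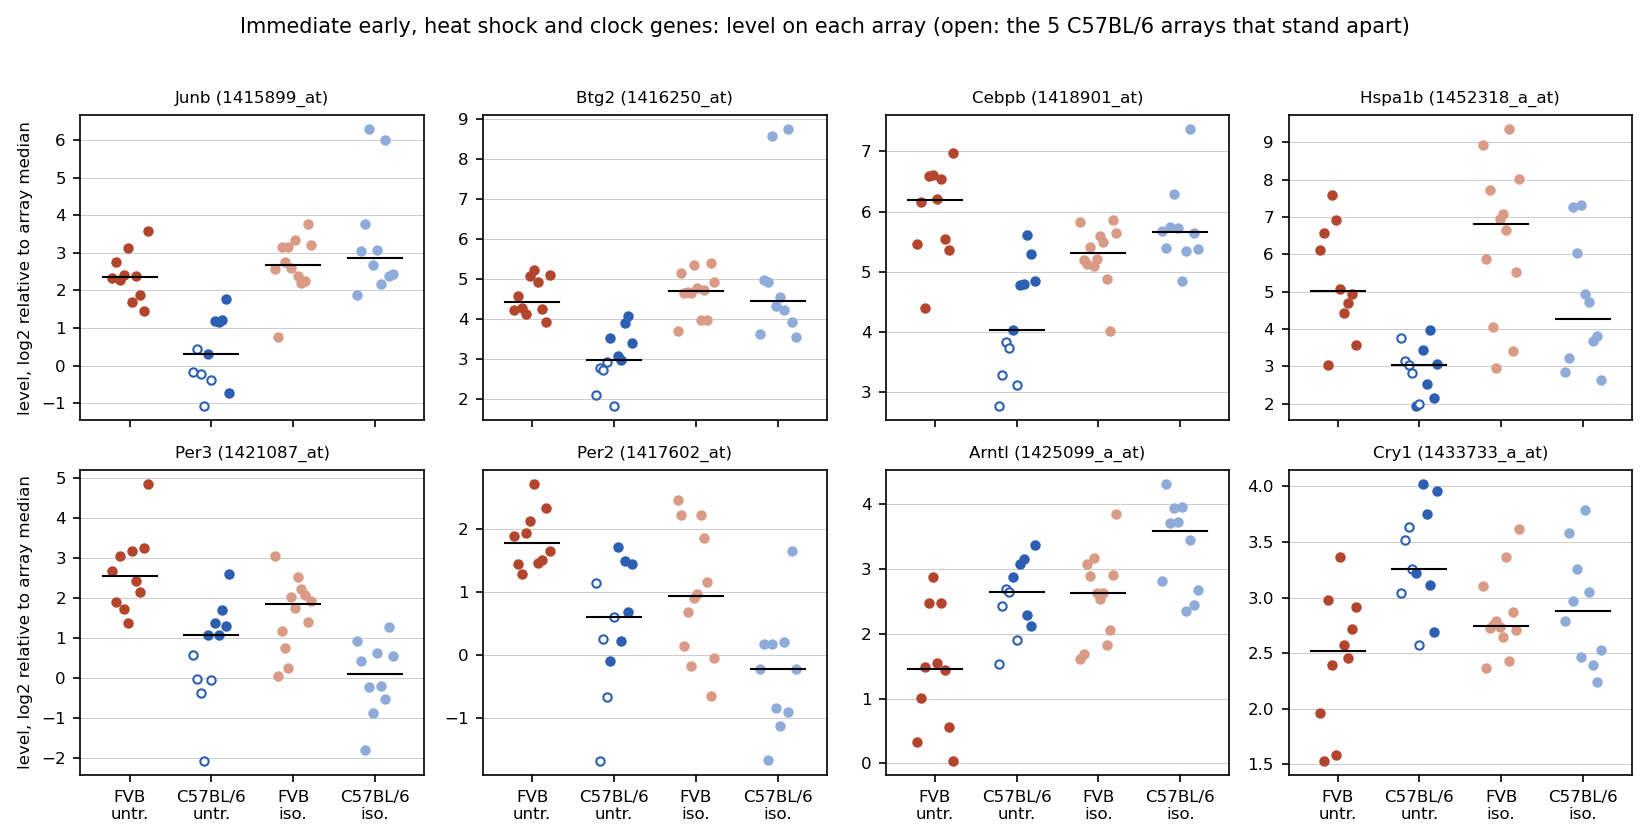
Level on each array (vertical axis, log2 relative to the array median) of Junb, Btg2, Cebpb, Hspa1b, Per3, Per2, Arntl and Cry1 in untreated FVB, untreated C57BL/6, treated FVB and treated C57BL/6 hearts, with bars for medians and open circles for the 5 C57BL/6 arrays that stood apart. For Junb, Btg2 and Cebpb untreated FVB medians (2.36, 4.43 and 6.18) exceed those of untreated C57BL/6 (0.32, 2.98 and 4.03), while the treated medians of the 2 strains lie close together.

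Markers of other cells were examined because whole hearts were used, in which fewer cells of a type and less RNA per cell cannot be told apart. Of 16 macrophage markers 3 were lower in FVB hearts, Adgre1 (-1.09), Lgals3 (-1.16) and Ccr2 (-1.20), and none higher, which is 18.8% against 6.21% of all genes. There were 2 lower without the 5 arrays, and 3 in treated mice. Their summed intensity ran from 326 to 1150 in FVB hearts, against 582 to 1570 in C57BL/6 hearts, with medians of 878 and 875. The abundant Lyz2 and Cd68 differed by -0.45 and 0.40 and did not pass. Lgals3 alone also passed in treated mice, at -1.64, and Ccr2 did not pass without the 5 arrays (adjusted p = 0.241). The single lymphocyte marker tested, the immunoglobulin chain Ighm, was lower by -1.23 and not without the 5 (adjusted p = 0.197). A second Ighm probe set differed by -0.21. Of 11 endothelium markers 1 passed (Egfl7, 0.66), which is 9.09%, and of 10 smooth muscle and pericyte markers 1 (Tagln, 0.77), which is 10%. Both shares are near the 9.8% of all genes. Of 3 neural and melanocyte markers 1 passed (Sox10, -0.94). None of them passed without the 5. In treated mice 0 were higher and 1 lower for endothelium and for smooth muscle and pericytes, and 1 higher and 0 lower for the neural markers. The other Egfl7 probe sets differed by 0.07, -0.27 and 0.55. Of 10 fibroblast markers none passed, and none of 9 lung epithelium markers reached the filter. Of 12 complement genes 0 were higher and 1 lower, which is 8.33% and below the 9.8% of all genes. Without the 5 arrays 0 passed in limma's test, and in treated mice 1 was higher and 1 lower. The lower gene was Clu, a secreted chaperone, by -0.61 at its most abundant probe set. Its other probe sets lay between -0.11 and 0.04.

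The other lines gave a further view of the 531 probe sets that passed in all 3 comparisons. The median of untreated B2KO hearts was nearer to that of FVB hearts at 499 of them (94.0%). The median of B6129SF2/J hearts was nearer to FVB at 132 (24.9%). At Gdpd3 the medians were 6.80 in B2KO and 5.27 in B6129SF2/J hearts, beside 7.11 in FVB and -2.11 in C57BL/6 hearts. At Ndufs5 they were 4.28 in B2KO and 9.42 in B6129SF2/J hearts, beside 4.17 in FVB and 9.11 in C57BL/6 hearts. By the ending of their names, 3.09% of plain _at sets, 2.13% of _a_at, 3.16% of _s_at and 3.74% of _x_at sets were among the 531, a difference that was not tested.

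Genes that differed also lay near each other. In the gene order of assembly GRCm38.p6, 43 of the 268 genes that passed in all 3 comparisons (16.0%) had a directly neighbouring tested gene that passed as well, against 480 of the 9415 others (5.1%). There were 3 runs of 3 such neighbours. Rhobtb3 (1.34), Rfesd (-1.38) and Arsk (-2.50) formed the first, Mccc1 (-2.37), Acad9 (-2.59) and Zfp267 (-1.16) the second, and Capzb (-3.07), Slc66a1 (-0.88) and Akr7a5 (-0.78) the last. In the last pair of runs all genes were lower in FVB hearts. These genes were named for their position after their values had been seen.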

How the data were processed

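The deposited values of 86 Affymetrix Mouse430_2 arrays of hearts were used, 21 of them for the main comparison. Per the submitters' processing notes the tool was GCRMA, version not stated. The authors' deposited values are linear intensities with a median of 1 on every array, and log2 was taken here. Array number limits the precision. Symbols came from the platform annotation, updated by gene number from RefSeq (GRCm38.p6), which held 99.4% of the probe sets with 1 symbol.

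Probe sets above log2 1 on at least 10 of 21 arrays were tested with limma 3.58.1 (lmFit, eBayes; R 4.3.3), fitted on the 21 arrays alone, with Benjamini-Hochberg adjustment over all probe sets, or over all genes for list members; the threshold was 0.05. Probe sets of a gene were compared through their per-array difference. A strain difference in treated minus untreated mice came from 1 fit over 4 groups. Scripts were tested on simulated data with 200 changed probe sets.

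Named are: the 10 genes each way with agreeing probe sets and the largest smallest difference; the 6 largest each way with 1 probe set; the 10 with the largest disagreement; up to 6 passing members of each list, all tested strain variants, and heart muscle markers; numbered names and sex genes were passed over. Rtp4, Ier2, H2-Ab1, Cd74, Lyz2 and Cd68 were named after their values were seen. The members and lists were chosen with earlier results of these data known. Alternatives were scaling, filters, moderation, array weights, a replicate block and left-out arrays. Replicate numbers did not pair the arrays. Adrb1 and Cpt1b are not reported here. Other groups hold a pair of near-identical arrays, not used here.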

Additional observations from a re-analysis of the deposited data

Results flagged for a closer look

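In the untreated FVB group, 134 sets of values (each named gene and 3 array measures) were searched for a single array far from the other 9. Of these, 8 were flagged, and 7 of the 8 were replicate 10. About 1 in 20 independent sets would be flagged by chance. These sets share the same arrays and are not independent, so their number cannot be compared with that share. Replicate 10 had a median correlation with the other arrays of 0.904 and a Gapdh 3′ minus 5′ difference of 2.06. Its level was the highest of its group for Myh7 (10.32) and Mybpc3 (10.22), and the lowest for Agtr1a (2.88), Ceacam1 (0.81) and Nnt (7.78). Replicate 1 had the lowest Tgfb3 (2.83).

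For 15 named genes the strain difference in treated mice differed from that in untreated mice by the test of the difference itself over 4 groups of arrays. Treated minus untreated, it was -2.25 for Cebpb, -1.21 for Mau2, -2.90 for Otub1, -1.17 for Bdh1, -2.02 for Btg2, -1.78 for Cacna1g, -1.02 for Egfl7, -2.76 for Junb, -1.39 for Kcnh2, -1.13 for Ppara, -1.80 for Slc8a1, -1.14 for Tagln and -0.95 for Tcap. It was 1.94 for Cxcl9 and 1.22 for Sox10, both lower in untreated FVB hearts. Over all probe sets 551 passed this test, 414 without the array labelled treated FVB replicate 2, and 2 without the 5 C57BL/6 arrays that stood apart. None of the 15 passed without the 5, and Otub1 came closest (adjusted p = 0.0785). Bdh1, Ppara and Sox10 did not pass without the labelled array either.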

How the results depend on the processing

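With all arrays 2171 probe sets, 950 genes, 103 genes with all probe sets in 1 direction and 1541 pairs of probe sets passed. Most alternatives kept more lower than higher calls, but 6 turned this for probe sets. Of these, array weights gave 1523 higher and 1056 lower genes, and only the 5 C57BL/6 arrays 1587 and 491. Without low-signal and high-Gapdh arrays the genes were 711 and 515, and without FVB replicates 1 to 4 they were 286 and 257. With no filter (500 and 727 genes) and without FVB replicate 1 the probe sets alone turned. Leaving out 1 array at a time gave 1677 to 2421 probe sets, 744 to 1089 genes, 81 to 118 genes with agreeing sets and 1114 to 1851 pairs. Chosen after seeing the data, leaving out the 5 C57BL/6 arrays gave 1028, 549, 58 and 325, the same with low-signal and high-Gapdh arrays also left out 1052, 546, 65 and 375, and using only the 5 gave 4062, 2078, 189 and 2773. Without the 5 and with arrays centred, 1233 probe sets and 325 pairs passed. Without FVB replicates 1 to 4 the counts were 1262, 543, 62 and 491. Without low-signal arrays 613 pairs passed, and without these and high-Gapdh arrays 157 genes with agreeing sets and 942 pairs. Centring each array gave 3833, 2141 and 195, quantile normalization 4136, 2328 and 220 (probe sets, genes and genes with agreeing sets), and array weights 4998, 2579, 305 and 2882. With no filter 3387 probe sets and 2796 pairs passed, and with a level of 3 in place of 1 the counts were 1008, 473, 42 and 797. A difference of at least 1 left 1161 probe sets. The cause of these shifts was not tested, apart from the fewer probe sets that a stricter filter tests. The replicate numbers did not pair the arrays (correlations of deviations from -0.271 to 0.129, with 1 of 10 over 0.1), and a replicate block gave 2029 probe sets, 827 genes, 91 genes with agreeing sets and 1308 pairs. Of 142 named probe sets that passed, 118 passed whichever array was left out, 91 without the 5 C57BL/6 arrays and 77 under every alternative. No detection calls were used, so how far levels below the array median stood above background was not tested.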
